A study of Mus musculus with 4 samples.

Results

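The collagen genes other than Col4a1 and Col4a2 were followed in RNA sequencing of mouse brain endothelial cells. They were found by symbol, as every gene whose name is Col, a number, the letter a and a number, with Col4a1 and Col4a2 taken out, which gave 36 of the 21578 genes in the deposited tables. The libraries came from Pd1fl/fl mice, in which the gene for the immune receptor PD-1 (Pdcd1) is flanked by loxP sites, and from Pd1cKO-Tie2 mice, which carry the same floxed alleles together with a Tie2-Cre transgene. All mice were C57BL/6 at postnatal day 0. There were 2 libraries per genotype. By the study's methods, cells were dissociated from cerebral cortices and sorted after staining for CD31 and CD45, and Tie2 drives Cre in the endothelial lineage and also in blood-forming and some myeloid cells. Whether the libraries of a genotype came from separate animals is not given in the sources used here, so the p-values below measure the spread between these libraries only.

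Collagens are trimers of alpha chains, and each chain has its own gene. Fibrillar collagens build the cables of connective tissue and, in the brain, are made mainly by fibroblasts of the meninges and around larger vessels. Network collagens form sheets such as the basement membrane under endothelium, where Col4a1 and Col4a2 supply the common chains, and multiplexins such as type XVIII sit in the same basement membranes. FACIT collagens attach to the surface of fibrils, membrane collagens span the cell membrane, type VI forms beaded filaments, and type VII forms the anchoring fibrils of skin.

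The promoters of 3 members are shown first, because results given below turn on these genes. They are RefSeq windows on GRCm38.p6 that run from 250 bases before to 50 bases after the annotated start, printed 5′ to 3′ on the gene's strand. Col18a1, the most abundant member, starts at 2 sites that lie far apart on chromosome 10, and a count per gene sums the transcripts of both. The first window, at chr10:77166481-77166780 on the minus strand, held the GC box letters (GGGCGG, or CCGCCC for the other strand) 3 times, in capitals, and the second, at chr10:77113656-77113955 on the minus strand, did not hold them. Col9a2, with the largest positive fold change among the tested members, held them 3 times at chr4:121039316-121039615 on the plus strand. The Col4a4 window, at chr1:82586800-82587099 on the minus strand, shows in capitals the 71 bases that separate Col4a4 from Col4a3, which runs the opposite way.
Col18a1, first start: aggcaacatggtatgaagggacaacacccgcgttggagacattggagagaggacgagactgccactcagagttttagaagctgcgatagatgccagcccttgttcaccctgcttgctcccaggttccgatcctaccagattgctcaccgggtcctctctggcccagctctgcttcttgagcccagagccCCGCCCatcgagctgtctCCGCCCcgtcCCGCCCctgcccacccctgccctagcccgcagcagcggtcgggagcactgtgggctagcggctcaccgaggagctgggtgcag
Col18a1, second start: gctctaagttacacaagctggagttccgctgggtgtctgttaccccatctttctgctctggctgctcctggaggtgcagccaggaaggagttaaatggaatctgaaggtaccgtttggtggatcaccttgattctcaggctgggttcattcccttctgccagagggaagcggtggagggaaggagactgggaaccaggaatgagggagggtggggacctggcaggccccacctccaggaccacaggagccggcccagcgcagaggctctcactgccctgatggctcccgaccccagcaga
Col9a2: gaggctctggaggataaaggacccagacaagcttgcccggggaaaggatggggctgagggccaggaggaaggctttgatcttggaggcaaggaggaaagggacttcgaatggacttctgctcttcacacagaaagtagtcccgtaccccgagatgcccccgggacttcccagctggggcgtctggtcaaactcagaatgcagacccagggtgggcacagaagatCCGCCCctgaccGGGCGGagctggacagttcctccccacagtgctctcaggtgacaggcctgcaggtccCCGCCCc
Col4a4: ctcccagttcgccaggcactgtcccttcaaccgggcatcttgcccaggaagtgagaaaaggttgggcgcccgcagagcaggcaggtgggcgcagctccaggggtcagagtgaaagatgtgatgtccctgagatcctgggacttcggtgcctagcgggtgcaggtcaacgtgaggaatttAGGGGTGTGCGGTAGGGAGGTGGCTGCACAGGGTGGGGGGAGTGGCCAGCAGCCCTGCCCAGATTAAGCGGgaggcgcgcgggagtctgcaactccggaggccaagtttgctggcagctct
Of the 36 members 27 had a window, and there were 29 windows in all. The GC box letters on either strand were in 65.5% of these windows and in 35.7% of all 32851 promoter windows of this length. The letters TATAAA or TTTATA were in 10.3% against 13.6%, and CCAAT or ATTGG in 31.0% against 37.4%. These are matches of letters only.

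The total count per library ran from 13715837 to 24147311, and the deepest library was Pd1cKO-Tie2 library 1. With a count of 0, as many as 3 counts remain possible, or 0.124 to 0.219 CPM (counts scaled to a library's total), for counting error alone. A gene missing from the tables of a library was taken as 0 and can hold up to 4 counts there. Pdcd1, the targeted gene, had 32 counts in Pd1fl/fl library 1 and 0 in the other 3 libraries, so its loss was not detectable against Pd1fl/fl library 2. All 18 endothelial markers were counted in every library, with Cldn5, a tight junction protein of the blood-brain barrier, highest. The second Pd1cKO-Tie2 library is known by its genotype alone.

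The members together took a small share of each library. The summed counts were 6614 in Pd1fl/fl library 1, 5256 in Pd1fl/fl library 2, 12166 in Pd1cKO-Tie2 library 1 and 6289 in Pd1cKO-Tie2 library 2. The lowest share of all counts was 0.0383% (95% Wilson interval 0.0373 to 0.0394) in Pd1fl/fl library 2, and the highest was 0.0504% (0.0495 to 0.0513) in Pd1cKO-Tie2 library 1. Summed levels scaled by edgeR's TMM method were 458, 369, 508 and 459.7 CPM in the same order of libraries. Both Pd1cKO-Tie2 libraries were thus higher, library 2 only just, at 459.7 CPM against 458 CPM in Pd1fl/fl library 1. The means were 414 ± 62.5 CPM for Pd1fl/fl and 484 ± 34.2 CPM for Pd1cKO-Tie2 (SD, n = 2 libraries each). As unscaled shares the genotypes overlapped, with 0.0461% in Pd1fl/fl library 1 and 0.0444% in Pd1cKO-Tie2 library 2. In such bulk samples, fewer cells of a type and less RNA per cell cannot be told apart.

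Most of these reads came from few genes. Col18a1 held 39.0% of the members' counts in Pd1fl/fl library 1, 50.9% in Pd1fl/fl library 2, 61.7% in Pd1cKO-Tie2 library 1 and 49.2% in Pd1cKO-Tie2 library 2. The fibrillar class held 38.3%, 25.5%, 25.1% and 38.5% in that order, so its share was high in 1 library of each genotype and low in the other. On average over the 4 libraries, the share was 50.3% for multiplexins, 31.9% for fibrillar, 6.44% for anchoring fibril and other, 4.41% for network, 4.11% for FACIT, 1.84% for beaded filament and 1.04% for membrane collagens. Per exon length, on the RPKM scale (TMM-scaled CPM per kilobase of exon), 7 of the 36 members had a mean level of at least 1.

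**Figure D1:**
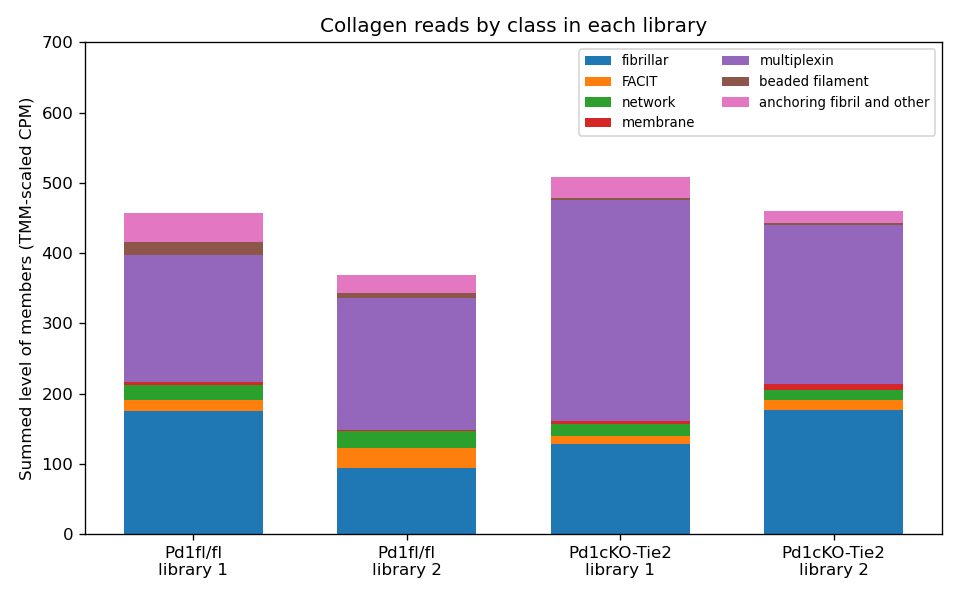
Summed level of the collagen genes in each library, in TMM-scaled CPM, stacked by class. Col18a1 makes up nearly all of the multiplexin part, which was 179.8 and 188 CPM in the Pd1fl/fl libraries and 314 and 226 CPM in the Pd1cKO-Tie2 libraries.

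Detection was patchier among the members than among genes in general. Of the 36 members, 19 were counted in all 4 libraries (52.8%), 5 in 3, 2 in 2 and 10 in 1 library only (27.8%). Over all 21578 listed genes, 67.6% were counted in all 4 libraries and 12.8% in 1 only. Of the 10 members seen in 1 library, 5 were in Pd1fl/fl library 1 (Col1a1, Col5a3, Col14a1, Col4a6 and Col6a1), 2 in Pd1fl/fl library 2 (Col6a4 and Col6a5), 3 in Pd1cKO-Tie2 library 1 (Col8a1, Col13a1 and Col19a1) and 0 in Pd1cKO-Tie2 library 2. Of all 2757 genes seen in 1 library, 730 were in Pd1fl/fl library 1, 801 in Pd1fl/fl library 2, 744 in Pd1cKO-Tie2 library 1 and 482 in Pd1cKO-Tie2 library 2. Replicate libraries also lay further apart for the members that could be tested. The median size of the log2 difference between libraries of a genotype was 1.26 in Pd1fl/fl and 1.08 in Pd1cKO-Tie2 over the 24 tested members. It was 0.47 and 0.47 over all 15909 genes tested, and 0.18 and 0.13 for Col4a1 and Col4a2. For Col18a1, the member with the most counts, the difference was 0.12 and 0.51. These sets differ in count level, and the part of count level in the spread was not tested.

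**Figure D2:**
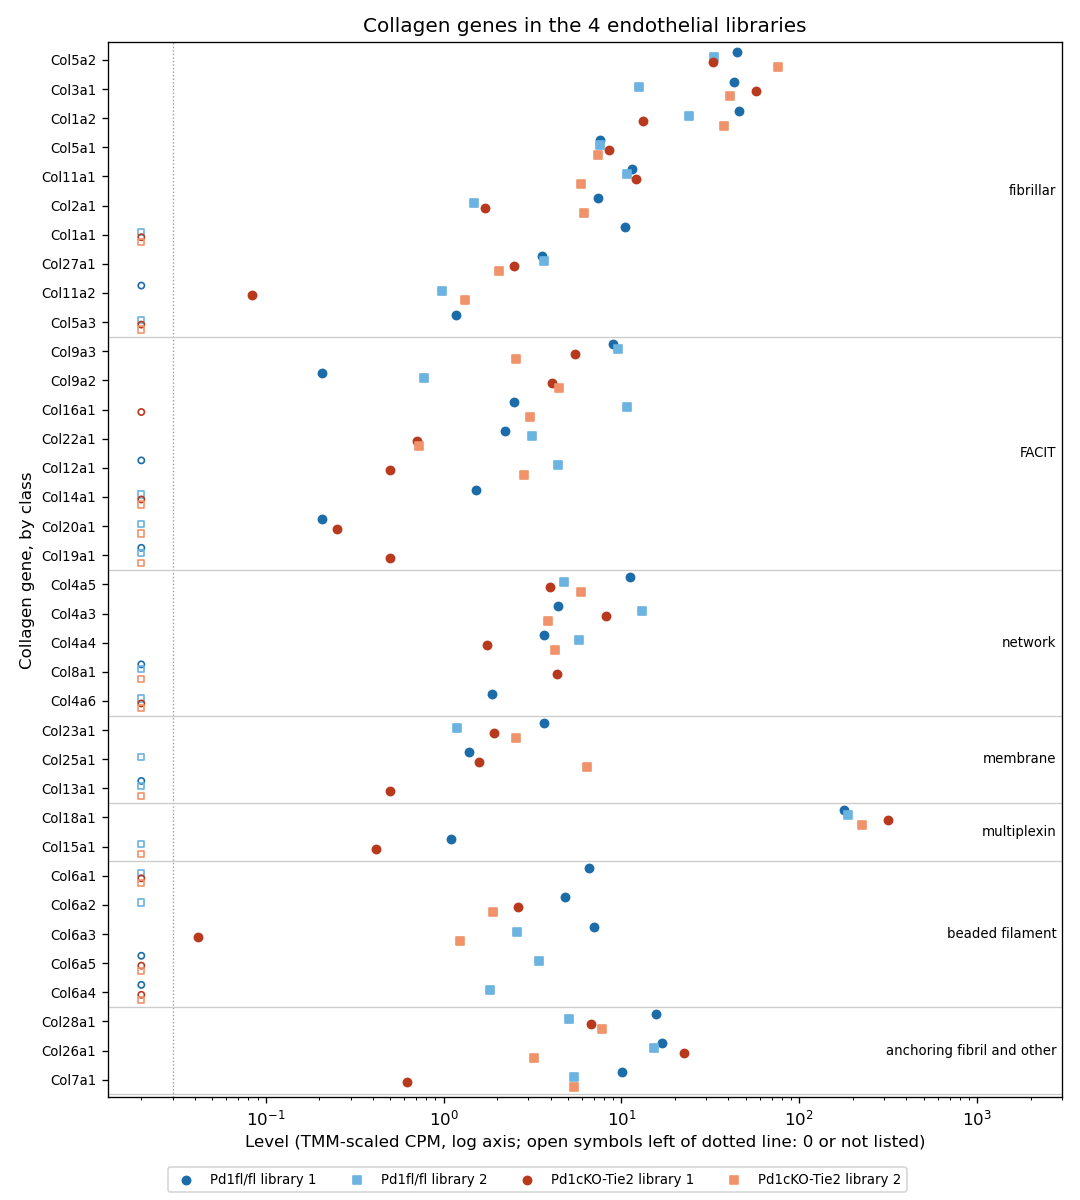
Level of each of the 36 collagen genes in each library, in TMM-scaled CPM on a log axis, with genes ordered by class and by mean level per exon length. Open symbols stand for a count of 0 or a gene not listed for that library. Col18a1 lies between 179 and 314 CPM, above every other member in every library.

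Between genotypes, edgeR found 0 of 24 tested members that met the study's criterion, a 2-fold or greater change together with p no higher than 0.05. Over all genes tested this criterion was met by 4.02%, with 1.41% higher and 2.61% lower in Pd1cKO-Tie2. DESeq2 on every gene with a count gave 5 of 36 members by the same criterion, against 4.34% of all genes, and limma-voom gave 1 of 24, against 3.17%. After Benjamini-Hochberg adjustment over all genes, 0 members (0.0% of all genes) had an adjusted p under 0.05 with edgeR, and DESeq2 and limma-voom also gave 0 members. The unadjusted p was under 0.05 for 1 member, Col18a1, and for 6.39% of all genes. With edgeR the lowest adjusted p of any gene was 0.735, and the common biological coefficient of variation was 0.610. With DESeq2 some genes outside the members had an adjusted p under 0.05, such as P3h3 at 0.0093, and their share was not counted. The 24 members had a median log2 fold change of -0.36, with 7 above and 17 below 0, and the median over all tested genes was -0.0038. The groups did not overlap for 8 tested members. Of these, 3 were higher in both Pd1cKO-Tie2 libraries (17.7% of all tested genes were) and 5 were lower (18.1%). The other 12 members did not pass edgeR's filter on low counts and had no test.

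**Figure D3:**
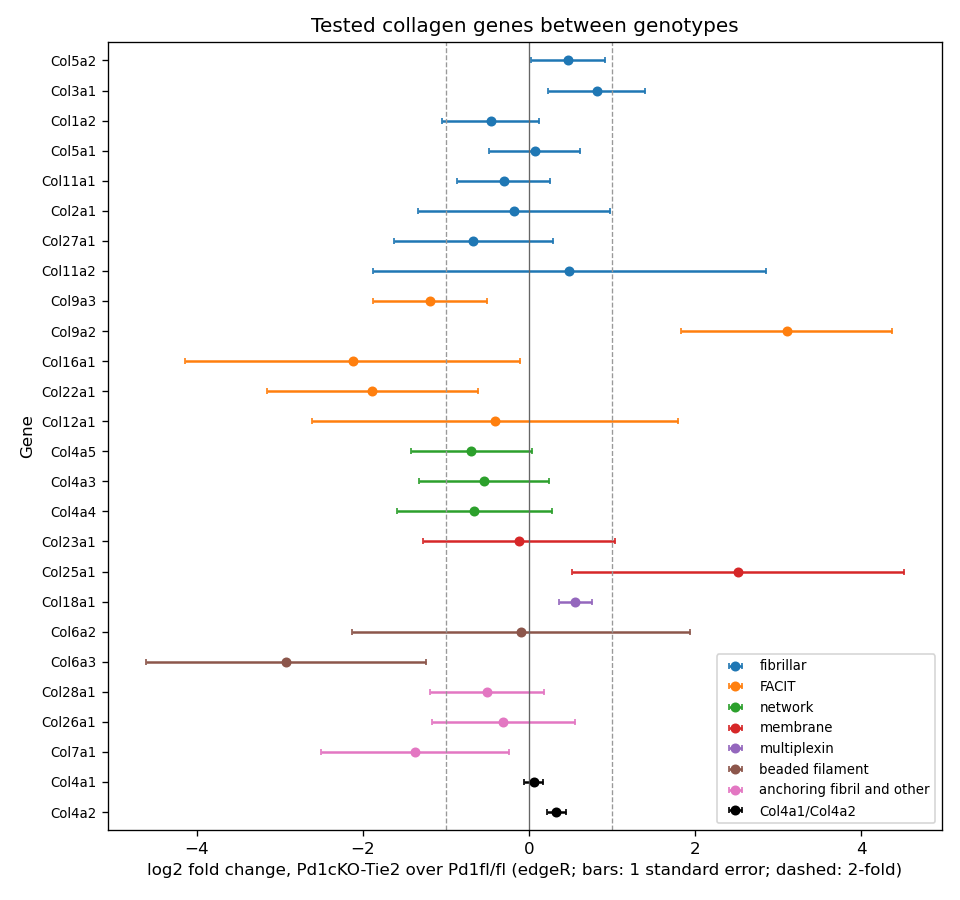
The log2 fold change of Pd1cKO-Tie2 over Pd1fl/fl for the 24 tested members and for Col4a1 and Col4a2, from edgeR, with bars of 1 standard error and dashed lines at 2-fold. Bars are short for Col18a1, Col4a1 and Col4a2 and reach over several log2 units for members with few counts, such as Col11a2.

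Col18a1 (ENSMUSG00000001435, chromosome 10 of GRCm38, 77052178 to 77166548) gives the core protein of type XVIII, a basement membrane proteoglycan whose end fragment is endostatin. It had 2582 counts in Pd1fl/fl library 1, 2675 in Pd1fl/fl library 2, 7507 in Pd1cKO-Tie2 library 1 and 3096 in Pd1cKO-Tie2 library 2. These are 179, 188, 314 and 226 CPM, so both Pd1cKO-Tie2 libraries were higher, and they differed more from each other than the Pd1fl/fl libraries did. The means were 183 ± 6.58 and 269.9 ± 61.7 CPM (SD, n = 2 each). The log2 fold change was 0.56 with a standard error of 0.20 and a p of 0.034, and the adjusted p was 0.753 (edgeR). Leaving out each library in turn moved the log2 fold change between 0.31 and 0.78. The unadjusted p rose above 0.05 with library size scaling (0.056) and without Pd1fl/fl library 1 (0.077), Pd1fl/fl library 2 (0.054) or Pd1cKO-Tie2 library 1 (0.219). Per exon length its mean level was 32.3 RPKM, 6.64 times that of the next member. Against the summed counts of Col4a1 and Col4a2 it came to 6.95%, 7.28%, 10.2% and 7.87% in the order of libraries above. The 18 endothelial markers all lay higher in both Pd1cKO-Tie2 libraries as well, as did 17.7% of all tested genes. Their log2 fold changes were 0.21 to 0.67 with a median of 0.35, and 1 of them was larger than that of Col18a1. The unadjusted p was under 0.05 for 10 of the 18 and for 6.39% of all tested genes (edgeR). The summed level of the 18 markers was 18955 and 18017 CPM in the Pd1fl/fl libraries and 23042 and 23973 CPM in the Pd1cKO-Tie2 libraries. The part of this shift in the Col18a1 value was not tested. Col15a1, the other multiplexin, had 16, 0, 10 and 0 counts.

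The fibrillar class held 10 members, of which 8 were tested and 0 met the criterion. The median log2 fold change was -0.057, with 4 members above and 4 below 0. Summed over the class, levels were 175 and 94.2 CPM in the Pd1fl/fl libraries and 128 and 177 CPM in the Pd1cKO-Tie2 libraries, or 135 ± 57.2 and 152 ± 35.0 CPM (SD, n = 2 each). The genotypes overlapped. Col5a2, Col3a1 and Col1a2 together made up 74.0% to 87.1% of the class counts in a library.

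Col5a2, a chain of the type V collagen that starts fibrils, had 647 and 472 counts in the Pd1fl/fl and 783 and 1037 counts in the Pd1cKO-Tie2 libraries. This was 44.8, 33.2, 32.7 and 75.8 CPM, with 1 Pd1cKO-Tie2 library at the bottom and the other at the top of the range. The log2 fold change was 0.47 ± 0.45 (standard error; adjusted p = 1.00, edgeR). Col3a1, the type III collagen of vessel walls and skin, had 621, 179, 1362 and 560 counts, or 43.0, 12.6, 56.9 and 40.9 CPM. Here Pd1fl/fl library 2 stood low and the other 3 libraries lay close together. The log2 fold change was 0.82 ± 0.59 (adjusted p = 0.967, edgeR), and without Pd1fl/fl library 1 it was 1.96, which met the criterion, while without Pd1fl/fl library 2 it was 0.19. Col3a1 and Col5a2 are neighbours on chromosome 1, tail to tail with 24614 bases between them, and the ratio of Col3a1 to Col5a2 per exon length was 0.938, 0.371, 1.70 and 0.528. The exons of Col3a1 share 141 bases with Gm47302 on the same strand.

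Type I collagen is a trimer of both of its chains, Col1a1 and Col1a2. Col1a2 had 659, 341, 317 and 514 counts, which is 45.6 CPM in Pd1fl/fl library 1, the highest, and 13.2 CPM in Pd1cKO-Tie2 library 1, the lowest. The genotypes overlapped and the log2 fold change was -0.46 ± 0.58 (adjusted p = 1.00, edgeR). Col1a1 had 152 counts in Pd1fl/fl library 1 and 0 in both Pd1cKO-Tie2 libraries, and was not listed for Pd1fl/fl library 2. The 2 chains of 1 collagen were therefore counted very unevenly, with Col1a1 at 0.437 times Col1a2 per exon length in Pd1fl/fl library 1 and at 0 in the other libraries, each of which held at least 317 counts of Col1a2. Col1a1 did not pass the filter in edgeR. DESeq2 tested it, with an adjusted p of 0.077, the lowest of any member in any fit tried.

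The other fibrillar genes were lower. Col5a1, the partner of Col5a2, was the steadiest, with 109, 108, 203 and 101 counts, or 7.55, 7.59, 8.48 and 7.38 CPM, and a log2 fold change of 0.07 ± 0.55. Col11a1 and Col2a1, which form the thin fibrils of cartilage, had 166, 153, 289 and 81 counts and 107, 21, 41 and 84 counts. Their log2 fold changes were -0.30 and -0.18, within 1 standard error of 0. Col27a1, another cartilage fibril collagen, had 52, 52, 60 and 28 counts, or 3.60, 3.66, 2.51 and 2.05 CPM. Both Pd1cKO-Tie2 libraries were below both Pd1fl/fl libraries, with a log2 fold change of -0.67 ± 0.96 (adjusted p = 1.00, edgeR). Col11a2 had 0, 14, 2 and 18 counts, and Col5a3 had 17 counts in Pd1fl/fl library 1 alone.

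Of the 8 FACIT members 5 were tested, and 0 met the criterion. Their median log2 fold change was -1.20, with 1 above and 4 below 0. The summed level was 15.6 and 28.7 CPM in the Pd1fl/fl and 11.6 and 13.7 CPM in the Pd1cKO-Tie2 libraries. Col9a2 and Col9a3 are chains of the same molecule, type IX collagen, which coats type II fibrils in cartilage, and they went in opposite directions. The type IX gene Col9a1 was not listed for any library. Col9a2 had 3 and 11 counts in the Pd1fl/fl and 98 and 61 counts in the Pd1cKO-Tie2 libraries, or 0.208, 0.773, 4.09 and 4.46 CPM. Its groups did not overlap, and the log2 fold change of 3.10 ± 1.27 had a p of 0.0521 and an adjusted p of 0.788 (edgeR). It met the criterion with DESeq2, and without Pd1fl/fl library 2 in edgeR. Col9a3 had 129, 137, 132 and 35 counts, or 8.93, 9.63, 5.51 and 2.56 CPM, lower in both Pd1cKO-Tie2 libraries, with a log2 fold change of -1.20 ± 0.69 (adjusted p = 0.924, edgeR). Per exon length, Col9a2 was 0.029, 0.1000, 0.924 and 2.17 times Col9a3. The exons of Col9a3 share 234 bases with Tcfl5 on the opposite strand, and whether the counting used strand is not given in the sources used here. Markers of cartilage offered little to compare, since of 8 markers 6 were listed and 1, Sox9, was tested, at a log2 fold change of -0.49 (adjusted p = 0.966, edgeR). Of the other listed markers, Hapln1 and Cnmd had 81 and 46 counts in Pd1cKO-Tie2 library 1 alone, Matn3 had 29 in Pd1fl/fl library 1 alone, Comp had 9, 0, 0 and 5 counts, and Acan, the main cartilage proteoglycan, had 3, 0, 0 and 3. Their part in the Col9a2 and Col9a3 values was not tested.

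Col16a1, a FACIT of fibroblasts and smooth muscle, had 36, 153, 0 and 42 counts, with Pd1fl/fl library 2 far above the rest. The log2 fold change was -2.12 ± 2.02. It was -0.71 without Pd1fl/fl library 2, and without Pd1cKO-Tie2 library 2, when the Pd1cKO-Tie2 group was at 0, Col16a1 met the criterion. Col22a1, found at tissue junctions, had 32, 45, 17 and 10 counts and both Pd1cKO-Tie2 libraries were lower, at -1.89 ± 1.27 (adjusted p = 0.953, edgeR). It met the criterion when only genes with at least 10 counts in every library were kept. Col12a1 had 0, 63, 12 and 39 counts. Col14a1 had 22 counts and Col19a1 had 12 counts, each in 1 library, and Col20a1 had 3, 0, 6 and 0 counts.

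The network class without the common chains held 5 members, of which 3 were tested and 0 met the criterion. Col4a3, Col4a4 and Col4a5 give the minor chains of type IV, best known from the kidney filter. Col4a5 had 162, 68, 95 and 81 counts, Col4a3 64, 186, 195 and 53 counts and Col4a4 53, 82, 42 and 58 counts. The highest Col4a5 level was in Pd1fl/fl library 1 and the highest Col4a3 and Col4a4 levels were in Pd1fl/fl library 2, and in each gene the genotypes overlapped. The log2 fold changes were -0.69, -0.54 and -0.66, each within 1 standard error of 0. Although only the 71 bases shown above separate their starts, Col4a3 and Col4a4 kept no fixed ratio, and per exon length Col4a3 was 1.29, 2.42, 4.94 and 0.973 times Col4a4. Col4a3 shares 563 exon bases with C430014B12Rik on the opposite strand. Col4a5 and Col4a6 also lie head to head, 1308 bases apart on chromosome X, and Col4a6 had 27 counts in Pd1fl/fl library 1 and 0 elsewhere. Col8a1, a short-chain collagen of vessel walls and the cornea, had 104 counts in Pd1cKO-Tie2 library 1 and 0 in the other 3 libraries. Per exon length the common chains were far higher, at a mean of 169.9 RPKM for Col4a1 and 227 RPKM for Col4a2, against 0.963 RPKM for Col4a5. The log2 fold changes of Col4a1 and Col4a2 were 0.06 and 0.33. For Col4a1 the genotypes overlapped. Col4a2 was higher in both Pd1cKO-Tie2 libraries, with an unadjusted p of 0.029 and an adjusted p of 0.738 (edgeR).

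Of the 3 membrane collagens, Col23a1 had 53, 17, 46 and 35 counts, with overlapping genotypes. Col25a1, a collagen of neurons, had 20, 0, 38 and 88 counts, or 1.38, 0, 1.59 and 6.43 CPM. Both Pd1cKO-Tie2 libraries were higher, library 1 only slightly so, and the log2 fold change was 2.52 ± 2.00 (adjusted p = 0.983, edgeR). Without Pd1fl/fl library 1, when the Pd1fl/fl group was at 0, it met the criterion. Without Pd1fl/fl library 2 or Pd1cKO-Tie2 library 2 the log2 fold change was 1.53 or 1.19. The 8 neuronal markers had a median log2 fold change of -0.11 and 0 met the criterion. Col13a1 had 12 counts in Pd1cKO-Tie2 library 1 alone.

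Type VI collagen is assembled from 3 different chains, and its genes were seen unevenly. Col6a1 had 95 counts in Pd1fl/fl library 1 and 0 in the others, Col6a2 had 70, 0, 63 and 26, and Col6a3 had 102, 37, 1 and 17. The 3 chains were thus counted together only in Pd1fl/fl library 1. Col6a3 was at 7.06, 2.60, 0.0418 and 1.24 CPM, lower in both Pd1cKO-Tie2 libraries, with a log2 fold change of -2.92 ± 1.69 (adjusted p = 0.925, edgeR), and it met the criterion without Pd1cKO-Tie2 library 2. Col6a4 and Col6a5 had 26 and 49 counts, both only in Pd1fl/fl library 2. Summed over the class, levels were 18.5 and 7.87 CPM in the Pd1fl/fl and 2.67 and 3.14 CPM in the Pd1cKO-Tie2 libraries.

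The remaining 3 members were counted in every library. Col7a1, which forms the anchoring fibrils that bind epithelium to the tissue beneath, had 146, 77, 15 and 74 counts, or 10.1, 5.41, 0.626 and 5.41 CPM. Pd1fl/fl library 2 and Pd1cKO-Tie2 library 2 were almost level, and the log2 fold change of -1.37 ± 1.13 (adjusted p = 0.991, edgeR) came mainly from Pd1cKO-Tie2 library 1. It met the criterion with limma-voom and without Pd1cKO-Tie2 library 2. Col26a1 had 243, 218, 542 and 44 counts, so the Pd1cKO-Tie2 libraries held both the highest and the lowest level, at 22.6 and 3.22 CPM. Without Pd1cKO-Tie2 library 1 its log2 fold change was -2.31 and met the criterion, and without Pd1cKO-Tie2 library 2 it was 0.50. Col28a1, known from the sheath of peripheral nerves, had 226, 72, 162 and 107 counts and a log2 fold change of -0.51 ± 0.69.

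The genes of the machinery that makes collagen ranged widely in level, from a mean of 133 RPKM for Serpinh1 to 0.055 RPKM for P4ha2. Of 22 biosynthesis enzymes and chaperones 21 were tested, with a median log2 fold change of 0.07. The highest per exon length were Serpinh1, the collagen chaperone of the endoplasmic reticulum, P4hb, a subunit of prolyl 4-hydroxylase, and Plod1, a lysyl hydroxylase. Their log2 fold changes were 0.07 ± 0.18, 0.01 ± 0.16 and 0.03 ± 0.15. P3h3, a prolyl 3-hydroxylase family member, met the criterion, with 57 and 81 counts in the Pd1fl/fl and 0 in both Pd1cKO-Tie2 libraries. Against a floor of 3 counts per library it was at least 17.99-fold lower from the lower Pd1fl/fl library, and at least 28.0-fold lower from the mean of both, and its adjusted p was 0.735 with edgeR and 0.0093 with DESeq2. Of 13 processing and crosslinking genes 9 were tested and 0 met the criterion, with a median of 0.05. Among them Loxl3, a lysyl oxidase, had a log2 fold change of 0.33, Bmp1, the procollagen C-proteinase, 0.79, and Loxl1, another lysyl oxidase, -0.11.

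All 10 collagen receptors were tested, with a median log2 fold change of -0.51, and 2 met the criterion, both lower. The criterion was met by 4.02% of all genes tested, and 2.61% of all genes tested met it on the lower side. Lair1, an inhibitory collagen receptor of leukocytes, had 1146, 601, 469 and 428 counts and a log2 fold change of -1.26 ± 0.42. Ddr1, a collagen-binding receptor kinase, had 404, 394, 334 and 189 counts and a level lower by 1.00 on the log2 scale. Both had an adjusted p of 0.735 (edgeR). Lair1 no longer met the criterion without Pd1fl/fl library 1, at -0.73, or without Pd1cKO-Tie2 library 1, at -0.95. Ddr1 no longer met it without any 1 of the 4 libraries, at values near the 2-fold limit and unadjusted p-values above 0.05. Beside them, the 8 leukocyte markers summed to 1065 and 1234 CPM in the Pd1fl/fl and 595 and 809.6 CPM in the Pd1cKO-Tie2 libraries, and 8 of 8 had a negative log2 fold change, with S100a8, a neutrophil gene, meeting the criterion on 531 counts in Pd1fl/fl library 1 against 7, 5 and 13 in the other libraries, and with a log2 fold change of 0.23 without that library. The astroglial markers summed to 1100.0 and 1059 CPM against 807 and 688 CPM, with Fabp7, a radial glia gene, meeting the criterion at -1.01. Without Pd1fl/fl library 2 or Pd1cKO-Tie2 library 2 Fabp7 was at -0.87 or -0.91 and did not meet it. The part of these markers in the receptor values was not tested. The collagen-binding integrin chains Itgb1 and Itga1 were the highest receptors, at log2 fold changes of 0.20 and -0.01. Of 10 small leucine-rich proteoglycans, which bind fibrils, 5 were tested and 0 met the criterion, with a median of -0.044, and Bgn was the highest at a log2 fold change of 0.23, followed by Ecm2 at -0.06 and Aspn at -0.91.

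Markers of fibroblasts, the main makers of fibrillar collagen in the brain, and of mural cells were set beside the collagens. Of 15 meningeal and perivascular fibroblast markers 13 were listed and 6 tested, and 0 met the criterion. They summed to 134 and 85.5 CPM in the Pd1fl/fl and 92.2 and 98.8 CPM in the Pd1cKO-Tie2 libraries. Of the listed markers, 2 were at 0 in Pd1fl/fl library 1, 5 in Pd1fl/fl library 2, 4 in Pd1cKO-Tie2 library 1 and 6 in Pd1cKO-Tie2 library 2. Fbln1, Foxc1 and Mgp were the highest per exon length and were counted in every library. So were Pdgfra, with 248, 151, 373 and 174 counts, Ptgds, with 4, 7, 10 and 15, and Slc6a13, with 6, 1, 10 and 1. Lum, a fibril-binding proteoglycan of fibroblasts, and Aldh1a2, a retinoic acid enzyme of the meninges, had 39 and 41 counts in Pd1fl/fl library 1 and 0 in the other 3 libraries. Other markers were seen elsewhere. Crabp2 had 19, 0, 66 and 0 counts and Foxd1 2, 0, 11 and 0, both highest in Pd1cKO-Tie2 library 1, and Twist1 and Cemip had 7 and 8 counts in Pd1fl/fl library 2 alone. Dcn had 92, 0, 38 and 63 counts, and like Col3a1 and Pdgfra it was lowest in Pd1fl/fl library 2. Of the highest markers, by CPM, Fbln1 and Mgp were lowest in Pd1cKO-Tie2 library 1 and Foxc1 in Pd1cKO-Tie2 library 2. The 14 mural markers were much higher, at 5791 and 3774 CPM in the Pd1fl/fl and 3884 and 3857 CPM in the Pd1cKO-Tie2 libraries, with Rgs5, Kcnj8 and Vtn, which mark pericytes, in the lead. Of these 11 were tested and 0 met the criterion, with a median log2 fold change of -0.16 and 1 above 0. Both Pd1cKO-Tie2 libraries were higher for 1 of them (17.7% of all tested genes were) and lower for 3 (18.1%). Of the contractile genes of smooth muscle in this list, Acta2, Tagln and Cnn1 did not exceed 11 counts in any library. Myh11, the smooth muscle myosin, had 0, 6, 40 and 16 counts and was the 1 tested mural marker with a positive log2 fold change. It was higher in both Pd1cKO-Tie2 libraries, with a log2 fold change of 2.71 ± 2.06 (adjusted p = 0.976, edgeR). The part of fibroblast or mural RNA in the collagen levels was not tested.

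**Figure D4:**
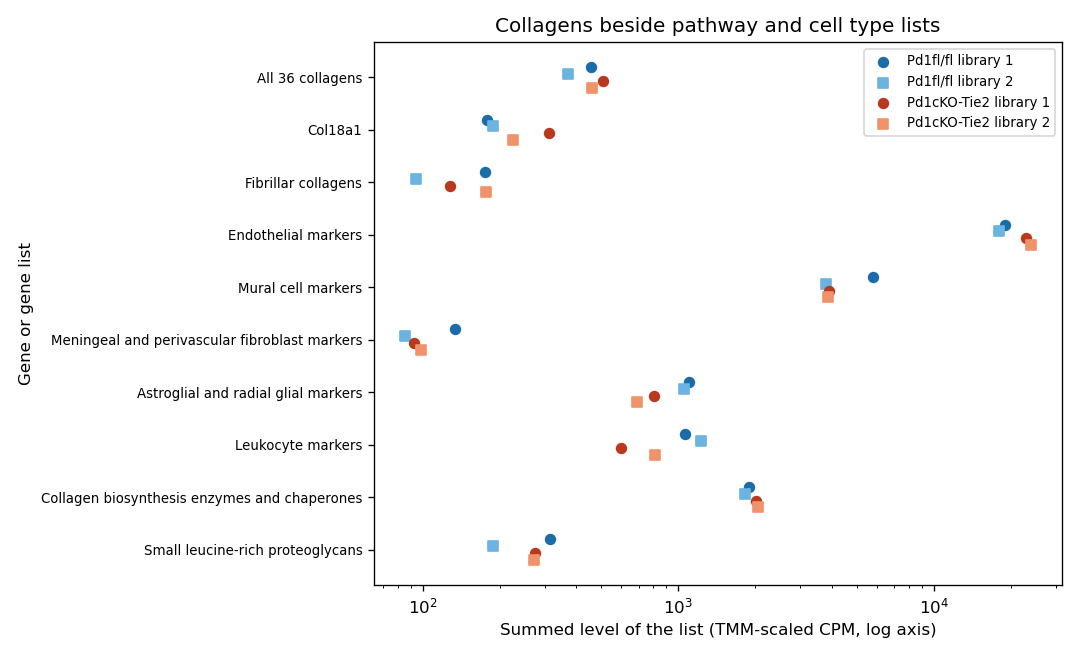
Summed level of all collagen members, Col18a1, the fibrillar collagens and 7 lists of other genes in each library, in TMM-scaled CPM on a log axis. Fibroblast markers sum to between 85.5 and 134 CPM and mural markers to between 3774 and 5791 CPM, and for both the highest library was Pd1fl/fl library 1.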

How the data were processed

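RNA of sorted brain endothelial cells was sequenced by the authors. The authors deposited 4 tables, each setting 1 Pd1cKO-Tie2 beside 1 Pd1fl/fl library, with whole read counts per gene, CPM, and their own fold changes and p-values, which were not used. The deposited CPM columns served only to recover library totals. The submitters' processing notes name Bowtie2 2.2.3, TopHat2 2.0.12, HTSeq 0.6.0 and mm9, while 90.0% of the gene positions in the tables equal GENCODE M21 on GRCm38. The use of strand is not given in the sources used here. Reads of overlapping genes may therefore have been dropped or assigned to either gene. Broken lines were left out (5 in each of 2 files), and identifiers were used to restore 23 gene symbols that had become dates. A gene was listed for a pair if both libraries held a count or 1 held at least 5, and 0.00495% to 0.0107% of a library's reads were unlisted. Column names gave the library, except that the second Pd1cKO-Tie2 column matched no sample number and was used by genotype.

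Counts were tested in edgeR 4.0.16 under R 4.3.3 by its quasi-likelihood test after filterByExpr (15909 genes) and TMM scaling, with no covariate, and p-values were adjusted over all genes tested. Standard errors were derived from F and the fold change. RPKM used the summed exon length of GENCODE M21, and replicate differences used a prior count of 2. Means, lengths and sequences were computed with Python 3.11.15. The alternatives were DESeq2 1.42.0, limma-voom (limma 3.58.1), 2 filters, 3 scalings, thinning of the deepest library and leaving out each library. The fit was tested on simulated data. Members named in full were those past the criterion, the 3 highest of a class per exon length, and those with at least 50 counts in a library that were confined to 1 library (80% of summed CPM) or did not overlap between genotypes. Counts are given for every other member. From the other lists, genes past the criterion and the 3 highest were named. Acan and the other cartilage markers, Lum, Aldh1a2, Dcn, Crabp2, Foxd1, Twist1, Cemip, Acta2, Tagln, Cnn1, Myh11 and P4ha2 were picked for the text once their values had been seen. Pdgfra, Ptgds and Slc6a13 were also picked after their values had been seen. The members and lists were chosen with earlier results of these data known. Of 44 annotated collagen genes, Col10a1, Col17a1, Col24a1, Col6a6, Col8a2 and Col9a1 were not listed for any library and so were not analysed here.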

Additional observations from a re-analysis of the deposited data

How the results depend on the processing

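The count of members past 2-fold at a p of 0.05 or less moved from 0 to 5 with DESeq2 on every gene with a count (Col1a1, Col6a1, Col6a5, Col8a1 and Col9a2), 2 with no filter beyond 1 count (Col1a1 and Col6a1, 3.23% of all genes), and 1 with limma-voom (Col7a1) or with at least 10 counts in every library (Col22a1, 3.76%). Most of these are members seen in 1 library, which the edgeR filter removes. It stayed at 0 under RLE, upper quartile and library size scaling and with the deepest library thinned. Leaving out each library in turn gave 1 to 4 members: 3 without Pd1fl/fl library 1 (4.03% of all genes tested), 3 without Pd1fl/fl library 2 (4.9%), 1 without Pd1cKO-Tie2 library 1 (4.04%) and 4 without Pd1cKO-Tie2 library 2 (3.84%). In all, 12 of 36 members (33.3%) met the criterion under at least 1 of 12 alternatives, and 12.2% of all genes did. The count with an adjusted p under 0.05 was 0 in each of them (lowest 0.077, and DESeq2 gave none for 8 members). Past the criterion there were 3 of 45 tested genes from the other collagen pathway lists, against 4.02% of all genes tested. Of these, Lair1 and Ddr1 did not keep to it when some libraries were left out, as given above.

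The median log2 fold change ran from -1.01 to -0.23 over all members and from -0.95 to 0.075 over fibrillar members when a library was left out. Of the 24 tested members 11 kept their sign in every alternative that tested them. Leaving out a library turned the sign of 8 named members, whose ranges were -1.39 to 0.12 for Col1a2, -0.25 to 0.97 for Col5a2, -1.16 to 0.44 for Col4a3, -1.18 to 0.050 for Col4a5, -0.71 to 0.90 for Col23a1, -2.31 to 0.50 for Col26a1, -1.10 to 0.53 for Col28a1 and -1.09 to 8.30 for Col6a2. Limma-voom also turned Col6a2, to 2.51. Of the members not named in full, Col12a1, Col11a2, Col2a1, Col11a1 and Col5a1 also changed sign in at least 1 alternative. Over all alternatives they ranged from -2.12 to 7.86, -2.45 to 6.61, -1.37 to 1.41, -0.90 to 0.12 and -0.026 to 0.17 in that order. The causes were not tested. A library left alone in its group is assumed to vary like the other group. No paired analysis was possible because the genotypes share fewer than 2 replicate numbers in the labels.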
